A study of Mus musculus with 6 samples.

Results

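Of the 58935 regions in the reproducible ATAC-seq list of Pbrm1 cKO oviductal muscle cells, 9666 lay away from gene starts and had no counterpart in the WT list. The regions were chosen by the lists themselves. Overlapping entries were merged within the list of each genotype, and a Pbrm1 cKO region was kept when it shared no base with any WT region and lay farther than 1 kb from every GENCODE transcription start. The 9666 regions, called Pbrm1 cKO-only distal regions below, were 16.4% of the Pbrm1 cKO list and 14.5% of the 66679 regions of both lists together. The same rule with the genotypes exchanged gave 6836 WT-only distal regions, and 28622 distal regions were in both lists (shared distal regions).

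PBRM1 (polybromo) is a bromodomain protein of the PBAF form of SWI/SNF, a complex that slides and evicts nucleosomes with the energy of ATP. Accessible DNA far from gene starts often holds enhancers, which bind transcription factors and act on promoters at a distance. AP-1, a dimer of FOS and JUN proteins, is a common occupant of such elements in mesenchymal cells, and CTCF, an insulator protein, marks another class of distal accessible site. Smooth muscle of the oviduct moves the embryo toward the uterus, and its contraction depends on calcium entry, on release of calcium from stores and on the balance of relaxing and contracting signals.

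ATAC-seq inserts sequencing adapters with the Tn5 transposase into DNA that is open. Cells came from the oviducts of mated mice aged 8 to 12 weeks on day 2 of pregnancy, with 3 WT and 3 Pbrm1 cKO libraries. In the study's other cells the conditional knockout was made in Pbrm1 fl/fl mice by a Cre recombinase expressed from the progesterone receptor gene, with Pbrm1 fl/fl mice as controls. The labels of the oviduct samples give only WT and Pbrm1 cKO, and cells that never expressed the progesterone receptor would keep Pbrm1 under such a Cre. Oviducts were digested and filtered without a sort, and the cells were held in culture for 4 h in a first medium and 2 h in a second.

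The label of muscle cells was read from regions within 1 kb of the starts of marker genes. Of 7 smooth muscle markers, 6 had a region in both lists, including Acta2, Myh11, Cnn1 and Des, and Actg2 had none in either. Of 7 epithelial markers, 1 had a region in both lists (Foxj1), and Epcam, Cdh1, Krt8, Krt18, Pax8 and Ovgp1 had none. Of 7 immune markers 2 had one in both lists, with none at Ptprc. Endothelial markers had a region for 5 of 6 genes in WT and 4 of 6 in Pbrm1 cKO, and fibroblast and pericyte markers likewise for 5 of 6 and 4 of 6, so other stromal cells cannot be told apart from muscle here. The lists of single libraries held 298563 to 300000 entries each. WT library 3 stood apart, with a median fold over background of 3.61 against 4.44 to 4.87 in the other libraries, and 213343 entries at a q of 0.05 or less against 274416 to 300000. Read totals per library are unknown here.

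Sequence was read from GRCm38 on the plus strand, 300 bp around the summit in the Pbrm1 cKO list. The first set holds the regions without any WT entry that ranked best in the Pbrm1 cKO libraries among those in introns or between genes. The sequence of 1 such region, nearest AC152060.1, is not shown, although it ranked ahead of these 4 and held 1 AP-1 match. Capitals mark each match to the AP-1 motif TGANTCA.
Gm8416 (chr14:8501769-8502068): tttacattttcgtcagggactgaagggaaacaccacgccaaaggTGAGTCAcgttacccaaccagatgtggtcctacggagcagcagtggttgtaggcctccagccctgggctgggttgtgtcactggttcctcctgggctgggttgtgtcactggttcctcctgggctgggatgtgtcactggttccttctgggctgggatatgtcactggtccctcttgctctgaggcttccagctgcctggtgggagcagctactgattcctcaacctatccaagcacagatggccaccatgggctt
Rgsl1 (chr1:153846908-153847207): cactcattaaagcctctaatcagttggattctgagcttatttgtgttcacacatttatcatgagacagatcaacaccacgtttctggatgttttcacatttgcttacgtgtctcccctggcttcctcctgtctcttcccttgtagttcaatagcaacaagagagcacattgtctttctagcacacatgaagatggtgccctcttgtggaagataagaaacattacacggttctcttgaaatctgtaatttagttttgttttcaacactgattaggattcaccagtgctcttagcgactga
Hemk1 (chr9:107316768-107317067): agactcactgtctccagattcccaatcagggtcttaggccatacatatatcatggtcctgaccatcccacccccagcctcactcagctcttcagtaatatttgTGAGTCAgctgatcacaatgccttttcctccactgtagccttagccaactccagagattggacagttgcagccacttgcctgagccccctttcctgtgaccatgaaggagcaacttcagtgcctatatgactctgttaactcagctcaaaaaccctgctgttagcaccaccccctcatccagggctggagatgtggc
Arhgef28 (chr13:98021838-98022137): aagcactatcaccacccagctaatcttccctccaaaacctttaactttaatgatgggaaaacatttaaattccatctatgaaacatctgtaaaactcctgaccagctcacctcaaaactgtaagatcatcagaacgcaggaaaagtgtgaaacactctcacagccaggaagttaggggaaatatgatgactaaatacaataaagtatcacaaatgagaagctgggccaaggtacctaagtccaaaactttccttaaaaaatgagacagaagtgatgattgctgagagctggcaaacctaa
The second set holds the regions with the highest −log10 p of the peak caller in the Pbrm1 cKO list, again in introns or between genes. The sequence of 1 of them, nearest Gm10532, is not shown, although it came before the one at Gm47719 and held 2 AP-1 matches.
1700025G04Rik (chr1:151953630-151953929): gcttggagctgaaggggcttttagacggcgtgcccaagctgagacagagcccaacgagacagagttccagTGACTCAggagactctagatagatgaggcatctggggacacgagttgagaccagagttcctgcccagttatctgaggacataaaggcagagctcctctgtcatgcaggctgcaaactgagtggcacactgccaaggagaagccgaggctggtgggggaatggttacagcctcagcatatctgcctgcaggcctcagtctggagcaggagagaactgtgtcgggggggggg
Erlec1 (chr11:30933726-30934025): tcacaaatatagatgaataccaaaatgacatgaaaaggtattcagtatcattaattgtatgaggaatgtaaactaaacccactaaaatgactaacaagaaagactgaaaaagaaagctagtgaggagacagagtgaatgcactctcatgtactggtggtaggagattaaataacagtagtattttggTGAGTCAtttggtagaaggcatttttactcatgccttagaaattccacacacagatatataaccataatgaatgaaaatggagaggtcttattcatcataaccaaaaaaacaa
Gpr176 (chr2:118375900-118376199): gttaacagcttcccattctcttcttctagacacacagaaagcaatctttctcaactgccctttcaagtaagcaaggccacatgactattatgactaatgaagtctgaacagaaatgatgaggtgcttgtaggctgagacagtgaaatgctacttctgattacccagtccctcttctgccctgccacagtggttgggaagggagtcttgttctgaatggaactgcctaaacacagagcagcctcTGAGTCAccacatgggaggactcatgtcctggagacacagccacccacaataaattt
Gm47719 (chr10:95813397-95813696): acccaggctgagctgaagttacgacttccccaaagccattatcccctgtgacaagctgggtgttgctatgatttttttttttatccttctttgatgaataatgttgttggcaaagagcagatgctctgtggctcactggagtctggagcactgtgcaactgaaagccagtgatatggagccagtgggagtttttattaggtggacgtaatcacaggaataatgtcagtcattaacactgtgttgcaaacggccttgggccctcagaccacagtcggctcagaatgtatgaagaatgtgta
Of these 8 windows, 5 held 1 AP-1 match each and the windows at Rgsl1, Arhgef28 and Gm47719 held none. The match began at base 188 of the window at Erlec1 and at base 104 at Hemk1, and the summit lies at the middle of each window. GC content was 32.7% at Erlec1, 57.3% at 1700025G04Rik and 56.7% at Gm8416.

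The Pbrm1 cKO-only distal regions were weak regions of their list. Their median −log10 p in the Pbrm1 cKO list was 32.7 (quartiles 26.2 and 41.9), against 66.5 for shared distal regions, and their median fold over background was 8.75 against 12.3. Their median width was 315 bp against 516 bp for shared distal regions, and the WT-only distal regions, at 325 bp, were close in width. The IDR score, which reaches 1000 for the most reproducible peaks, was at its ceiling in 11.6% of the Pbrm1 cKO-only and 64.6% of the shared distal regions. The WT-only distal regions were likewise weak in the WT list. There their median −log10 p was 25.7 against 49.2 for shared distal regions, and their median fold 7.6 against 10.5.

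Within each library, regions were ranked by −log10 p among all 66679, with rank 1 the strongest. The median rank of the Pbrm1 cKO-only distal regions was 61327 in WT library 1, 60887 in WT library 2 and 56250 in WT library 3. In Pbrm1 cKO libraries 1, 2 and 3 it was 49242, 49106 and 51795. All 3 Pbrm1 cKO medians were ahead of all 3 WT medians, as the choice of the regions favours, and the quartile ranges of WT library 3 and Pbrm1 cKO library 3 overlapped most (47515 to 62319 and 42130 to 59121). The 50000 best intervals of a library held 13.3%, 12.8% and 14.9% of these regions in the WT libraries, and 37.0%, 37.6% and 31.3% in the Pbrm1 cKO libraries. Shared distal regions stood at 71.4% to 83.6% by the same measure. In each library taken singly, most Pbrm1 cKO-only regions were thus outside its strong part. In such bulk samples, fewer cells with an open site and less opening per cell cannot be told apart.

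**Figure D1:**
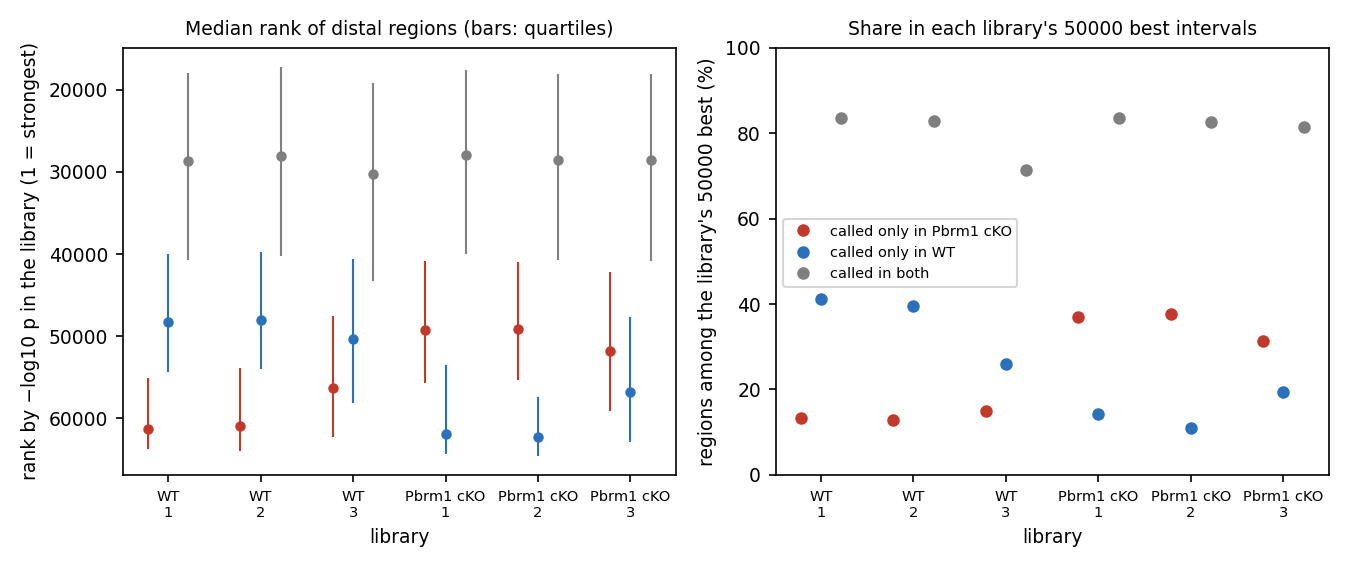
Left, the median rank by −log10 p (y axis, 1 = strongest, drawn upward) of distal regions in each of the 6 libraries (x axis), with bars from the lower to the upper quartile. Right, the percentage of the same regions held by the 50000 best intervals of each library. Red points are Pbrm1 cKO-only, blue WT-only and grey shared distal regions. The red points lie between 49106 and 61327 on the left and at 37.6% or less on the right, below the grey points in every library.

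Most of these regions were listed in WT libraries too, though a smaller share than over all regions. An entry of the relaxed lists, which the authors called at a p of 0.01 for each library alone, overlapped 94.1%, 94.7% and 81.9% of the regions in WT libraries 1, 2 and 3, and 99.6%, 99.7% and 98.5% in the Pbrm1 cKO libraries. In all, 7503 regions (77.6%, 95% Wilson interval 76.8 to 78.4, counting error only) had an entry in all 3 WT libraries. The same share was 94.6% over all 66679 regions and 98.85% over shared distal regions, a difference that the choice of the regions favours. A further 1636 Pbrm1 cKO-only distal regions had entries in 2 WT libraries, and for 1269 of them the library without one was WT library 3. Leaving out WT library 3, 90.7% had an entry in both remaining WT libraries. Only 389 had an entry in 1 WT library and 138 (1.43%) in none, against 0.25% of all regions with none. A region with no entry is below the threshold of that list and is not shown to be closed. Of the WT-only distal regions, 90.4% had an entry in all 3 Pbrm1 cKO libraries and 65 in none.

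Some regions lay close to the edges of the rule, both in distance and in reproducibility. The closest Pbrm1 cKO-only distal region lay 14 bp from a WT region, 325 lay within 100 bp and 1216 within 1000 bp, while the smallest overlap that put a distal Pbrm1 cKO region among the shared ones was 26 bp and 29 shared 100 bp or less. The median gap to the nearest WT region was 8514 bp, and 45.2% of the regions lay over 10 kb from one. At the other edge, 84 regions lay in the first 100 bp beyond 1 kb from a transcription start, and 95 regions called only in Pbrm1 cKO were left out in the last 100 bp before it. At the edge of reproducibility, 19 regions had the lowest IDR score of the list, 540.

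Among the 138 regions with no WT entry, 102 had an entry in all 3 Pbrm1 cKO libraries. Of these, 43 were intronic, 47 intergenic and 12 exonic, their median −log10 p in the Pbrm1 cKO list was 25.2, and 50 (49.0%) held an AP-1 match. They were mostly faint, with a median of 55447 for the mean rank over the Pbrm1 cKO libraries. The best of them lay in an exon of Opn4, the gene of the photopigment melanopsin (chr14:34595529-34596165, 3690 bp from the nearest start), with ranks of 18633, 12889 and 19179.5 in Pbrm1 cKO libraries 1, 2 and 3 and folds over background of 13.8, 15.2 and 12.6. The region at Gm8416, an intronic site 92928 bp from a start (chr14:8501845-8502008), ranked 23995, 29953.5 and 25832.5. The 3 libraries were close together at both sites. A region near Rgsl1, a gene of the family of G-protein signalling regulators (chr1:153846949-153847369), ranked 29674.5, 28426 and 28237.

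The remaining ones were less even between libraries. The region near Hemk1, a methyltransferase gene, ranked 44884, 28998.5 and 17616 in the 3 Pbrm1 cKO libraries. The intronic region of Arhgef28, which encodes an exchange factor that activates RHOA (chr13:98021808-98022362), ranked 30380, 51285 and 23950.5. RHOA signalling promotes smooth muscle contraction. The regions at Slc25a17, a peroxisomal carrier gene, Alg9, a mannosyltransferase gene, Gm8349 and Phf14, which encodes a chromatin reader, and a region on chromosome 18 nearest AC152060.1 completed the 10 best, with mean Pbrm1 cKO ranks of 21040.7 to 39789.3.

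**Figure D2:**
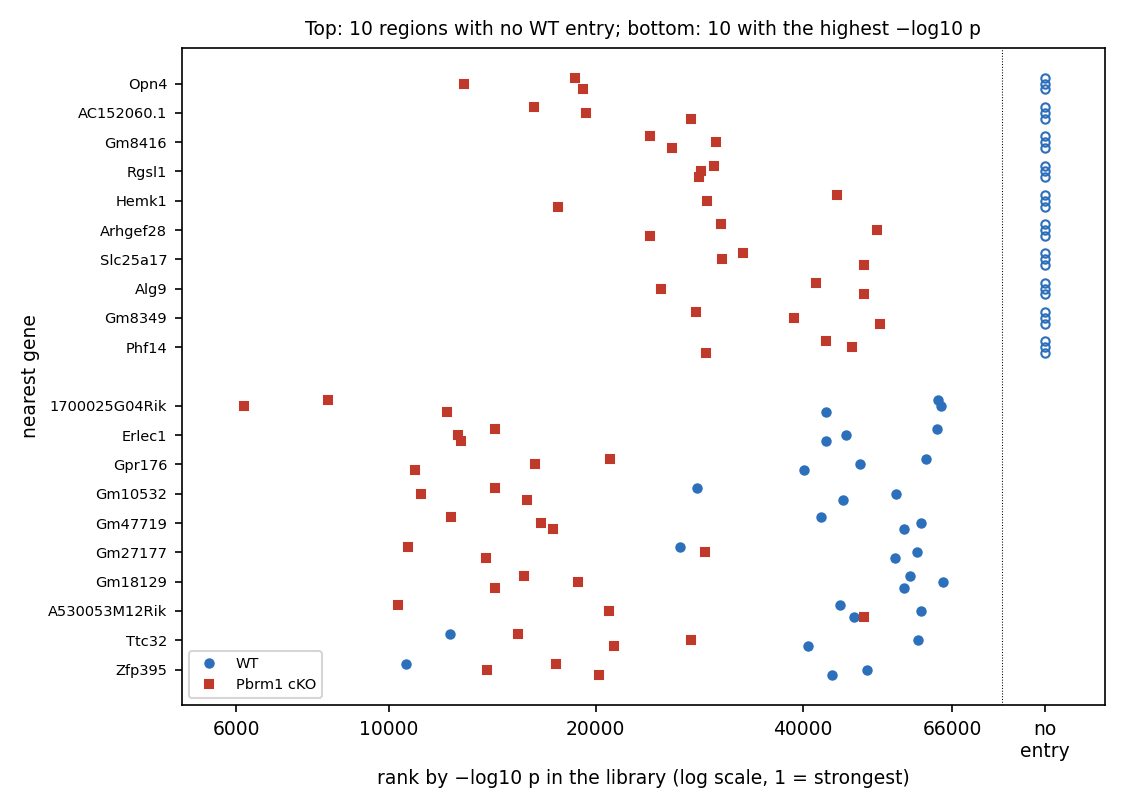
Rank by −log10 p in each library (x axis, log scale, 1 = strongest) of 20 Pbrm1 cKO-only distal regions named by their nearest gene (y axis). Blue circles are the 3 WT and red squares the 3 Pbrm1 cKO libraries, slightly offset, and open circles right of the dotted line mark libraries without an entry. In the lower block the red squares of Ttc32 and Zfp395 lie behind a blue circle, at ranks of 12279 and 10587.5 in WT library 1.

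The regions with the highest −log10 p in the Pbrm1 cKO list were, with WT ranks beside them, partly separated and partly not. The strongest, in an intron of 1700025G04Rik (chr1:151953528-151954127, −log10 p 181.9), ranked 62994, 63493 and 43294 in WT and 8155, 6161 and 12143 in Pbrm1 cKO libraries, and its fold over background was 4.62, 4.38 and 5.17 against 19.1, 19.4 and 15.0. The intronic region of Erlec1 (chr11:30933575-30934167), which encodes a lectin of the endoplasmic reticulum, ranked 62673, 46258 and 43294 in WT and 14252, 12600 and 12736 in Pbrm1 cKO libraries. The groups did not overlap at either site. The region 2163 bp from a start of Gpr176, an orphan receptor gene, was also separated, at 60415, 48502.5 and 40240.5 against 21009, 16306 and 10919.

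Other strong regions depended on single WT libraries. The region nearest Zfp395, a zinc finger gene (chr14:65389768-65390080), ranked 10587.5, 49597 and 44157 in WT and 17526.5, 13899.5 and 20250.5 in Pbrm1 cKO libraries. Near Ttc32, WT library 1 ranked the region at 12279, ahead of all 3 Pbrm1 cKO libraries, and the nearest WT peak lay 90 bp away. In both cases WT library 1 held a peak as strong as any in Pbrm1 cKO cells, and the groups overlapped. At A530053M12Rik it was a Pbrm1 cKO library that overlapped WT, with ranks of 10313, 20946 and 49180 against 45342.5, 59500 and 47515.

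The rank comparison of the genotypes used the contrast that chose the regions, so its counts are a description. Across all 66679 regions, 26 were past an adjusted p of 0.05 with better ranks in Pbrm1 cKO (limma, 0.0390% of all regions tested), and 11 of them were Pbrm1 cKO-only distal regions. With worse ranks in Pbrm1 cKO, 19 of all regions were past the threshold (0.0285%) and 0 of the Pbrm1 cKO-only distal regions. At an unadjusted p under 0.05 in the same limma fit, 2483 of the Pbrm1 cKO-only distal regions had better ranks in Pbrm1 cKO, beside 7.51% of all regions, and 35 had worse ranks, beside 8.37% of all regions. Ranks were better in all 3 Pbrm1 cKO than in all 3 WT libraries for 2933 of the 9666 regions, against 10.6% of all regions. The difference in rank score, log2(66679/rank), had a median of 0.197 (quartiles 0.05 and 0.38) against 0.00055 over all regions. A rank score difference of 1 means that the rank number is divided by 2. Of the 9666 regions, 124 (1.28%) exceeded it, which their choice favours, and the share over all regions was not counted. The number of Pbrm1 cKO-only distal regions past the threshold was 0 or 1 whenever any library was left out, beside 2 to 5 of all regions. When normal scores were fitted it was 418, beside 662 of all regions (0.993%). That number in turn was 29 without Pbrm1 cKO library 1, 54 without Pbrm1 cKO library 2, 84 without WT library 1, 171 without WT library 2, 333 without Pbrm1 cKO library 3 and 547 without WT library 3. Over all regions the numbers with better ranks in Pbrm1 cKO were, in the same order, 42, 83, 179, 361, 439 and 904.

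Besides Opn4, 1700025G04Rik, Erlec1, Gm8416, Rgsl1, Gm47719 and the region nearest AC152060.1, the 11 included 4 others. Near Kcnn3, which encodes a calcium-activated potassium channel that relaxes smooth muscle (chr3:89686039-89686495, intergenic), ranks were 62086 and 63336 in WT libraries 1 and 2, with no entry in WT library 3, and 19206.5, 18416 and 18418 in Pbrm1 cKO libraries. The rank score was 1.77 ± 0.28 (SE, n = 3 and 3) higher in Pbrm1 cKO. In an intron of Bmpr1a, the gene of a type I receptor for bone morphogenetic proteins (chr14:34440244-34440924), ranks were 65810, 62731 and 63416 in WT and 21486, 28941 and 23071 in Pbrm1 cKO libraries. The difference was 1.40 ± 0.25, and the fold over background was 2.95, 4.75 and 2.35 against 12.8, 10.3 and 11.2. Both were separated in every library.

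The intergenic region nearest Lpcat1, a phospholipid acyltransferase gene (chr13:73429560-73430293), ranked 58445.5, 63226 and 58820.5 in WT and 20151, 20951 and 22201 in Pbrm1 cKO libraries. A region 28142 bp from a start of Gm18129 on chromosome 7 ranked 57389, 63990 and 56250.5 against 15747.5, 18867.5 and 14287.5. Its nearest WT region was 239035 bp away. Of the 11, the regions at Opn4, Bmpr1a and Gm8416 lay on chromosome 14, which carries Pbrm1, and those at Opn4 and Bmpr1a lay within 20 Mb of it. That stretch held 149 Pbrm1 cKO-only, 127 WT-only and 430 shared distal regions. A stretch of 40 Mb on chromosome 1, with 1700025G04Rik and Rgsl1, held 228 Pbrm1 cKO-only distal regions (2.36%), 2.18% of the WT-only and 2.24% of the shared ones.

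Position was measured independently of the choice, apart from the distance to starts. Introns held 52.7% of the Pbrm1 cKO-only distal regions (95% Wilson interval 51.7 to 53.7), 49.0% of the WT-only (47.8 to 50.2) and 48.9% of the shared distal regions (48.3 to 49.5). Intergenic sequence held 38.8% (37.8 to 39.8), 44.4% (43.2 to 45.6) and 43.0% (42.4 to 43.6). The Pbrm1 cKO-only regions were thus placed in introns more often than both other sets by margins wider than counting error. All intervals here cover counting error only, since neighbouring regions are not independent. Exons held 8.47%, 6.64% and 8.10%. The median distance to a transcription start was 11.2 kb, 13.5 kb and 11.3 kb for the 3 sets in the same order, and 10.5% of the Pbrm1 cKO-only and 13.5% of the WT-only regions lay over 50 kb away.

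The autosomes carried Pbrm1 cKO-only distal regions in near proportion to shared ones, and the X chromosome stood apart. The autosomes had 30.1 (chromosome 18) to 38.5 (chromosome 19) per 100 shared distal regions, and the X chromosome had 54.4, with 216 Pbrm1 cKO-only and 397 shared regions. The Y chromosome, which female mice lack, had only 3 of each and 0 WT-only regions, and nothing is read from them. The WT-only regions on the X chromosome were also above the autosomes, at 30.0 per 100 against 21.2 to 26.3. As a share of each set, the X chromosome held 2.23% of the Pbrm1 cKO-only regions (1.96 to 2.55), 1.74% of the WT-only (1.46 to 2.08) and 1.39% of the shared ones (1.26 to 1.53). The first and second intervals overlap.

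**Figure D3:**
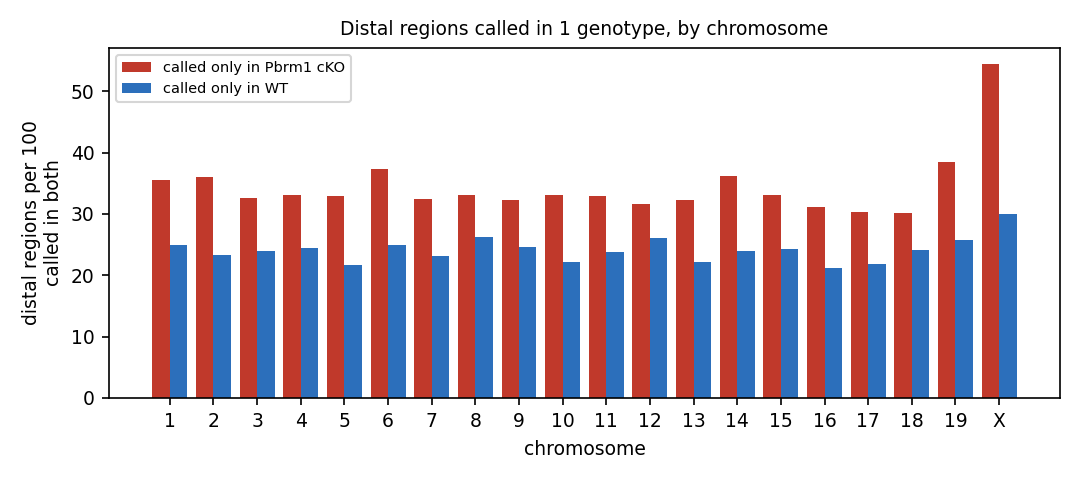
Distal regions called in 1 genotype only, per 100 shared distal regions (y axis), for each autosome and the X chromosome (x axis). Red bars are Pbrm1 cKO-only and blue bars WT-only regions, and of the chromosomes drawn the X chromosome has the tallest bar of each colour, at 54.4 and 30.0.

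A run of Pbrm1 cKO-only distal regions lay in repeated sequence of chromosome 14, and was singled out after its values were seen. Between positions 69256612 and 69666015, a span of 409 kb around Entpd4 and Synb, there were 25 Pbrm1 cKO-only, 0 WT-only and 21 shared distal regions. The 300-bp window of every one of the 25 and of the 21 had at least 1 further copy in GRCm38 with 98% identity or more over at least 90% of its length, and reads from identical parts of such copies cannot be told apart. The region nearest Gm27177, 1 of the 10 with the highest −log10 p in the Pbrm1 cKO list, was among the 25. Of all bins of 500 kb along the genome, the one with the first part of the run held the most Pbrm1 cKO-only regions, 18, against a median of 2 over the bins that held any.

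The 21 shared regions of the run come from the same stretch, so their values too are a description. Their median ranks were 41747, 36884 and 42202 in WT libraries 1, 2 and 3, and 20384, 23262 and 25699 in the Pbrm1 cKO libraries. In 15 of the 21, ranks were better in all 3 Pbrm1 cKO than in all 3 WT libraries, against 10.6% of all regions, and the median rank score difference was 0.94. The 25 Pbrm1 cKO-only regions had medians of 61714, 63990 and 56250 against 33528, 35636 and 43232. None of either set was past the adjusted threshold. Over the whole genome, 87 Pbrm1 cKO-only distal regions (0.90%, 0.73 to 1.11) had such a copy, against 34 of the WT-only (0.50%, 0.36 to 0.69) and 120 of the shared distal regions (0.42%, 0.35 to 0.50). Outside the run the shares were 0.64%, 0.50% and 0.35%. Soft-masked repeats filled over 50% of the window in 3.60%, 2.46% and 1.91% of the 3 sets.

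Motif matches were counted on both strands of the 300 bp around each summit. AP-1 (TGANTCA) was the most frequent of the 25 motifs searched in the Pbrm1 cKO-only distal regions. It matched 44.2% of them (43.2 to 45.2), 41.3% of the WT-only (40.2 to 42.5) and 49.2% of the shared distal regions (48.6 to 49.7), against 36.5% of all 66679 regions. A single match was held by 36.4% of the Pbrm1 cKO-only regions and 2 or more by 7.75%. Matches gathered at the summit. In the bin centred 30 bp before it, 7.55% of the Pbrm1 cKO-only regions had a match starting, as against 0.76% in the bin 490 bp before, and the WT-only and shared regions had 6.57% and 7.94% in the first of these bins.

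**Figure D4:**
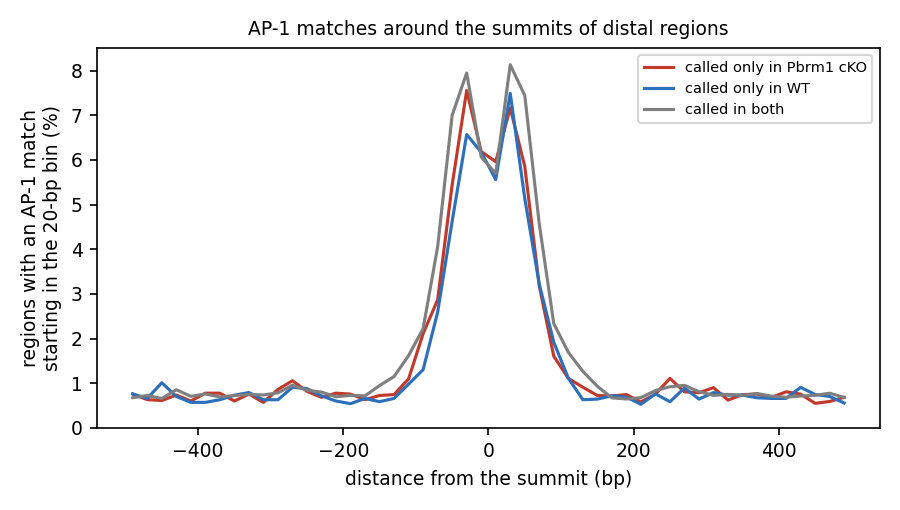
Percentage of distal regions with an AP-1 match starting in each 20-bp bin (y axis) by distance from the summit (x axis, bp). The red line is Pbrm1 cKO-only, the blue line WT-only and the grey line shared distal regions, and all 3 have a pair of maxima near 30 bp on either side of the summit, with 7.55% in the red line 30 bp before it.

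The CTCF core motif separated the sets called in 1 genotype. It matched 6.89% of the Pbrm1 cKO-only (6.40 to 7.41), 3.94% of the WT-only (3.50 to 4.42) and 7.06% of the shared distal regions (6.77 to 7.36), against 5.28% of all regions. RUNX (TGTGGTT), the site of the RUNX factors, matched 9.96% (9.38 to 10.6), 7.55% (6.95 to 8.20) and 8.72% (8.40 to 9.05). TEAD (GGAATG), the site of the factors that carry the Hippo signal to DNA, was lower in the Pbrm1 cKO-only regions, at 22.0% (21.2 to 22.8) against 25.7% (24.6 to 26.7) and 24.2% (23.7 to 24.7). The letters AGATAA, which GATA factors bind, matched 17.3%, 16.1% and 15.3%.

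Motifs of CpG-rich sequence were scarce. SP/KLF (GGGCGGG) matched 3.36% of the Pbrm1 cKO-only distal regions, 4.45% of the WT-only, 5.30% of the shared and 14.8% of all regions, promoters included. TCF/LEF (ATCAAAG), the site of the factors of Wnt signalling, matched 3.73% (3.38 to 4.13), 4.93% (4.44 to 5.47) and 4.23% (4.00 to 4.47). The motif of the smooth muscle regulator SRF, the CArG box, matched 1.73%, 1.96% and 1.95%, with overlapping intervals. The palindromic estrogen receptor motif was rare, at 0.07% of the Pbrm1 cKO-only (0.04 to 0.15) and 0.34% of the WT-only regions (0.22 to 0.50). It matched 0.15% of the shared distal regions (0.11 to 0.20) and 0.12% of all regions. The intervals of the Pbrm1 cKO-only and shared regions overlapped, and that of the WT-only regions lay above both. The motif of the progesterone and glucocorticoid receptors matched 0.26%, 0.29% and 0.26%. Median GC content was 46.7%, 47.3% and 48.0% in the 3 sets.

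**Figure D5:**
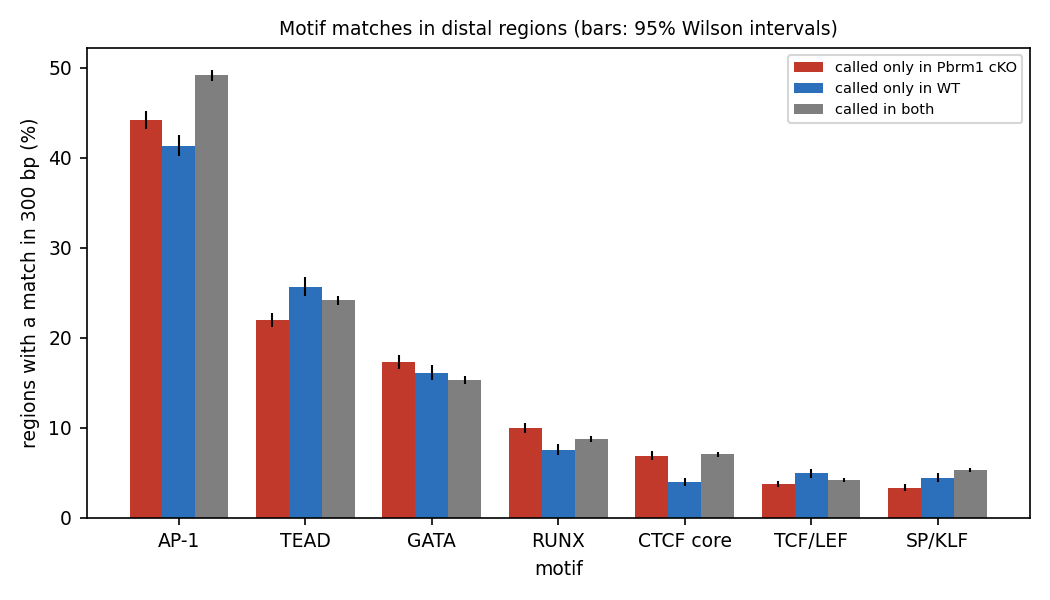
Percentage of distal regions with at least 1 match in 300 bp (y axis) for 7 motifs (x axis). Red bars are Pbrm1 cKO-only, blue WT-only and grey shared distal regions, and error bars are 95% Wilson intervals for counting error. The red and grey bars of the CTCF core, at 6.89% and 7.06%, stand above the blue bar at 3.94%.

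The CTCF share differed between strong and weak regions, and in another way in each set. The Pbrm1 cKO-only distal regions were put by −log10 p into 4 strength classes of equal size, class 1 the weakest. The CTCF share was 3.89%, 6.58%, 7.29% and 9.81% in classes 1 to 4, with an interval of 3.19 to 4.74 in the first and 8.68 to 11.1 in the last. In the WT-only regions, divided likewise, it was 4.56%, 4.27%, 3.57% and 3.34%, and in the shared distal regions 5.46%, 8.37%, 8.41% and 6.0%. The AP-1 share was nearly level across the classes of the Pbrm1 cKO-only regions, from 42.2% to 45.1%, and close to the 44.6% of class 1 of the shared distal regions, whose class 4 had 57.8%. In the WT-only regions it was 37.6% in class 1 and 46.7% in class 4. With a CTCF match, 49.7% of the Pbrm1 cKO-only regions were intergenic, against 38.0% without one. The regions with an AP-1 match lay a median of 12.4 kb from a start and those without 10.5 kb.

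Strength also went with the WT entries. In class 1, 63.4% of the regions had an entry in all 3 WT libraries, and in class 4, 88.3%. Of the 138 regions with no WT entry, 92 were in class 1 and 13 in class 4. The median rank score difference was 0.08, 0.15, 0.27 and 0.49 in classes 1 to 4. The choice of the regions and classes cut on strength in the Pbrm1 cKO list favour this order, so it is a description.

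The regions were spread over many genes. By nearest transcription start they fell to 7332 genes, 5706 of them with a single region, and 53 genes had 5 or more. The nearest gene is a label and not a measured target. Cdkal1, a gene of transfer RNA modification, Kalrn, which encodes an exchange factor for small GTPases, and Mast4, a kinase gene, had 10 each. Pard3, a cell polarity gene, had 9, Sox5, a developmental transcription factor gene, had 8, and Bmper, whose product binds bone morphogenetic proteins, and Gas7 had 7 each. At Sox5 all 8 were intronic, 7 held an AP-1 match and no WT-only distal region was nearest to the gene, while 5 shared ones were. At Pard3 there were 0 WT-only and 12 shared distal regions, and at Kalrn 7 and 14. Ablim1, Asap1 and Cped1 had 6 each.

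Regions close together were uncommon. With neighbours joined up to 12.5 kb apart, 7746 of the 9666 stood alone and 1920 (19.9%) had another beside them. Groups of 6 lay at Ivns1abp on chromosome 1, at Acvr1 on chromosome 2 and at Plpp3 on chromosome 4, and a group of 5 lay in Sik3. Acvr1 encodes an activin and bone morphogenetic protein receptor, and Plpp3 a lipid phosphatase.

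Genes of contraction were examined by lists. Below, groups called apart or separated are those whose ranks did not overlap. The choice of the regions favours this, and it held for 30.3% of the Pbrm1 cKO-only distal regions against 10.6% of all regions. Naming the strongest region of a gene in the Pbrm1 cKO list favours it further. Over all their regions, groups were apart for 4 of 10 contractile, 9 of 27 receptor and channel and 5 of 15 muscle regulator regions. The counts were 3 of 10 for prostaglandin, 1 of 6 for steroid receptor and 2 of 16 for Müllerian genes. They were 6 of 24 for TGF-beta, 6 of 29 for Wnt and Hedgehog and 10 of 35 for matrix genes. Of the regions in these lists, only 1, at Bmpr1a, was past the limma threshold. Of 20 contractile genes of smooth muscle, 7 had a Pbrm1 cKO-only distal region nearest to them, 10 regions in all (0.10% of the set, against 0.13% of the WT-only and 0.12% of the shared distal regions). Tpm1, which encodes tropomyosin, had 4. The strongest, in an intron 7.53 kb from a start, ranked 54939, 60412.5 and 61807.5 in WT and 36884.5, 42717 and 42507 in Pbrm1 cKO libraries. The groups were apart there. At Acta2, the smooth muscle actin gene, the 1 region ranked 50070, 60796 and 54498 against 46891, 39280 and 30286, with no overlap. At Csrp1 and Itga8 the ranks of the groups overlapped.

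Of 30 receptors and channels of contraction, 13 had 27 regions (0.28%, against 0.25% and 0.18%). Cacna1c, the pore of the L-type calcium channel, Itpr1, the receptor that releases stored calcium, and Prkg1, the kinase of nitric oxide relaxation, had 5 each. The strongest at Cacna1c (chr6:118708511-118708829) ranked 62308, 51425.5 and 63416 in WT and 30254.5, 39381.5 and 39653 in Pbrm1 cKO libraries. At Itpr1 the strongest ranked 64707.5 and 63990 in WT libraries 1 and 2, with no entry in the third, and 49923.5, 49383 and 39316.5 in Pbrm1 cKO. These groups were apart. At Prkg1 they overlapped, since Pbrm1 cKO library 3 ranked its strongest region at 56801.5 and WT library 2 at 55157.5. Kcnma1, a potassium channel gene, had 3.

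Of 16 regulators of smooth muscle, 8 had 15 regions (0.16%, against 0.18% and 0.23%). Myocd, the gene of the coactivator of SRF, had 2, the stronger at ranks of 61327, 54230.5 and 61175 in WT and 42284, 41413 and 51795 in Pbrm1 cKO libraries. Mef2c had 2, and the stronger had no entry in WT library 1, ranked 65458.5 and 57952 in the others and 45328.5, 40358 and 37003 in Pbrm1 cKO. Both were separated. Foxp1 had 4 beside 11 shared distal regions, and its strongest was not separated, with WT library 1 at 27706 and Pbrm1 cKO library 3 at 36652.5.

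Of 27 prostaglandin genes, 6 had 10 regions (0.10%, against 0.12% of each other set). Pla2g4a, whose product frees arachidonic acid for prostaglandin synthesis, had 5, beside 1 WT-only and 2 shared distal regions. The strongest of them ranked 61707.5, 46934 and 56250.5 in WT and 39231, 45581 and 46578 in Pbrm1 cKO libraries, a narrow separation. At Akr1b3, an aldose reductase gene, a region over an exon had no WT entry and ranked 54129, 50567 and 49180 in Pbrm1 cKO. Ptger4, a receptor of prostaglandin E2, had 1, whose groups overlapped.

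Of 9 steroid receptor genes, 2 had 6 regions (0.06%, against 0.10% of each other set). Esr1, the estrogen receptor alpha gene, had 5, beside 3 WT-only and 18 shared distal regions, and Esr2 had 1. The strongest at Esr1 ranked 43372.5, 63125.5 and 56250.5 in WT and 49431, 32536 and 32227.5 in Pbrm1 cKO libraries, which overlapped. Of 27 regulators of the Müllerian tract and its stroma, 8 had 16 regions (0.17%, against 0.12% and 0.13%). Emx2, a developmental transcription factor gene, had 4, and the ranks of its strongest overlapped between groups. Meis2 and Wt1 had 2 each.

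Of 30 genes of TGF-beta and bone morphogenetic protein signalling, 13 had 24 regions (0.25%, against 0.26% and 0.29%). Bmpr1b, a type I receptor gene, had 4, with no WT-only distal region. The strongest ranked 61327 and 53013 in WT libraries 1 and 2, had no entry in the third, and ranked 38689.5, 34814 and 36652.5 in Pbrm1 cKO libraries. The list held 1 of the 11 regions named in the rank comparison, at Bmpr1a. Of 39 Wnt and Hedgehog genes, 17 had 29 regions (0.30%, against 0.22% of each other set). Gli3, a transcription factor gene of Hedgehog signalling, had 3, the strongest at 65595, 65790 and 58896 against 40219.5, 34361 and 42897, and Sufu, an inhibitor of the pathway, had 4.

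Of 35 collagen and matrix genes, 17 had 35 regions, the most of any list (0.36%, against 0.32% and 0.44%). Col6a3 had 5 and Col4a1 and Col15a1, a collagen of basement membranes and one found beside them, had 4 each. At Col4a1 the strongest ranked 61984 and 65894 in WT libraries 1 and 2, had no entry in the third, and ranked 29377.5, 37361 and 41817 in Pbrm1 cKO. At Col6a3 the groups overlapped. Of 18 genes of AP-1 and related factors, 3 had 5 regions, at Maf, Maff and Jdp2 (0.05%, against 0.12% and 0.07%), and the median rank score difference was -0.06, the only list below 0. None of the Fos or Jun genes was among the 3. Of 27 SWI/SNF subunit genes 7 had 9 regions (0.09%, against 0.13% and 0.10%), with 2 each at Actl6a and Arid2.

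Genes of other cells of the oviduct had regions too. Of 29 genes of oviduct epithelium, 4 had 1 region each (0.04%, against 0.09% and 0.10%). Of 20 immune genes 1 had 1, at Csf1r (0.01%, against 0.01% and 0.04%). Of 17 endothelial genes, 4 had 10 regions (0.10%, against 0.13% and 0.09%), with 4 each at Pecam1, an adhesion molecule gene, and Vwf, the von Willebrand factor gene, and 6 of the 10 held an AP-1 match. Fibroblast and pericyte genes had 11 regions at 10 of 20 genes (0.11%, against 0.18% and 0.11%). Over all annotated genes, 7332 of 55341 had a Pbrm1 cKO-only distal region nearest to it. These counts took no account of gene length.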

How the data were processed

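ATAC-seq peak lists of 3 WT and 3 Pbrm1 cKO libraries were used, grouped by their labels. The study describes its replicates as biological, though nothing in the labels says which animals were pooled, so p-values measure the spread between these samples. The authors state the use of the ENCODE pipeline for ATAC-seq, the GRCm38 assembly and the MACS2 peak caller. They deposited a relaxed list per library (p of 0.01, at most 300000 entries) and 1 conservative list per genotype at an irreproducible discovery rate (IDR) of 0.05, made from pooled reads. Which libraries entered the IDR step is not given in the sources used here. The deposited values are the authors' fold of each summit over local background (a ratio), −log10 p and −log10 q, and a score, which in the conservative lists is a rescaled IDR. No counts were used, so the authors' read-count test was replaced by ranks.

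Each region took the best −log10 p of the overlapping entries of each library, and no entry took the lowest rank. The fit was limma 3.58.1 in R 4.3.3 (trend, Benjamini-Hochberg over all 66679 regions, threshold 0.05) on log2(number of regions/rank), tested on simulated data. Ranks hide any shift that a whole library shares. Starts and genes came from GENCODE M21 (all transcripts), and sequence from RefSeq GRCm38. Motifs were counted in Python 3.11.15, intervals are Wilson 95% and cover counting error only, and copies were sought with BLAST+ 2.17.0.

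The members, lists and motifs were chosen with earlier results of these data known. Named regions were the 10 without a WT entry and in all 3 Pbrm1 cKO libraries with the best mean Pbrm1 cKO rank, the 10 with the highest −log10 p, the 10 genes with the most regions, those past the threshold, and up to 4 genes per list, of which one is not reported here. Up to 4 windows of each of the first and second groups were printed.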

Additional observations from a re-analysis of the deposited data

How the results depend on the processing

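The number of Pbrm1 cKO-only distal regions stayed within 1.5 times of 9666 under 6 alternatives, from 6765 (IDR of 0.01 or less in both lists) to 10129 (starts of the GENCODE basic transcripts, chosen after seeing the data). The share with an entry in all WT libraries was 67.4% with entries at a q of 0.05 or less, 35.4% with the 100000 best intervals of each library and 92.1% at an IDR of 0.01. It was 79.5% to 90.7% without 1 WT library, highest without WT library 3. The number with no WT entry was 1104 with the 100000 best intervals, 32 at an IDR of 0.01, and 187 to 331 without 1 WT library. The number past the limma threshold was the least stable value. It was 11, 418 with normal scores (29 to 547 without 1 library), 2 with ranks by fold, 3 in regions with an entry in all 6 libraries, and 0 to 1 without 1 library (0 without WT library 1 or 2 or Pbrm1 cKO library 1 or 2). Over all regions tested, those with better ranks in Pbrm1 cKO numbered, in the same order, 26, 662 (42 to 904), 4, 14 and 2 to 5. With the replicate block, 32 Pbrm1 cKO-only distal regions were past the threshold, beside 66 of all regions. Same-numbered libraries did not deviate together in rank score (correlations of their deviations -0.00, -0.05 and 0.01). Ranks hide any shift that a whole library shares, so these values cannot show whether the numbers pair samples or mark a batch. In both genotypes library 3 was most often the one without an entry. It was that library in 77.6% of the regions lacking 1 WT entry and 78.1% of those lacking 1 Pbrm1 cKO entry. The median rank score difference was 0.18 to 0.23 without 1 library, and 0.52 on the scale of normal scores. The AP-1 share was 41.5% in 200 bp and 43.0% around the middle of the region. Causes of these changes were not tested. Depth per library is unknown, and a region without an entry may be open below the threshold of the list.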
